A study of Citrus sinensis and Citrus x aurantiifolia and Citrus x latifolia with 53 samples.

Results

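The 150 transcripts described here were the most abundant leaf-biased transcripts of irrigated grafted lime trees, 150 of the 24533 gene identifiers counted. They were chosen by their level in CPM, which is a library's count for a gene divided by the total of that library's column and multiplied by 1000000. A member had a mean of at least 400 CPM over the control leaf libraries and at least 4 times its mean over the control root libraries, and the list kept the 150 with the highest leaf mean. Of all identifiers, 278 reached the level, 173 met both thresholds and 23 of those fell below the 150 highest. The other 105 genes at that level were not leaf-biased by the rule and serve below for comparison.

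The study left trees without irrigation for 9 days (water deficit, WD) and compared them with regularly irrigated trees (control, Ctrl), to ask whether extra genome copies in the rootstock, the scion or both help a citrus tree through drought. The scions were the triploid (3x) Persian lime (PL, Citrus latifolia) and the diploid (2x) Mexican lime (ML, Citrus aurantiifolia). Each was grafted on a tetraploid (4x) or a diploid (2x) Swingle citrumelo 4475, whose parents the labels give as Citrus sinensis x Poncirus trifoliata, and a combination such as PL4x names the scion and then the rootstock's ploidy. All trees had grown for 2 years in 40 L pots in a greenhouse, and the plan held 4 WD and 3 Ctrl trees in each of the combinations PL4x, PL2x, ML4x and ML2x. The libraries analysed were 26 of leaves, of which 15 were WD and 11 Ctrl, and 27 of roots, of which 15 were WD and 12 Ctrl. Leaves of PL2x had 3 WD and 2 Ctrl libraries and its roots had 3 of each, with the remaining libraries of that combination not analysed here. Since a leaf has the scion's genome and a root the rootstock's, tissue and genotype cannot be told apart in any value that sets leaf beside root.

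In green leaves a small number of nuclear genes supplies a large part of the messenger RNA. The best known encode the small subunit of Rubisco, the light-harvesting chlorophyll proteins and other parts of the photosystems and the carbon fixation cycle, and roots grown in the dark carry little of these messages. In many plants the messages for photosynthesis become scarcer when drought closes the stomata and carbon uptake drops. Whether a given transcript here belongs to these families cannot be said. The identifiers are of the form used for clementine (Citrus clementina) gene models, the files do not pair them with names, and 0 of 24533 matched the sweet orange gene table at hand. For the same reason neither the leaf and root labels nor any cell type could be checked against marker genes, and the transcripts are ordered below by level and by leaf-to-root ratio in place of function. CPM is not divided by transcript length, so an order of levels is one of reads and not of molecules. In whole organs, fewer cells of a type and less RNA per cell cannot be told apart.

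Library totals ran from 3747153 to 54838385 counts in leaves and from 1118899 to 27925992 in roots, so even the rarest member in control leaves was counted many times in each leaf library. Some libraries stood apart from their group over the 150 transcripts, and results that rest on them are given with and without them. Among WD leaves, PL2x WD 1 and ML4x WD 1 lay near their controls, and PL4x WD 2 lay far above the other 3 PL4x WD libraries. Among WD roots, ML2x WD 2 and PL4x WD 3 had the highest median log2 difference of the members from their own controls, at 1.03 and 0.86, where the other WD root libraries had -0.49 to 0.53. Replicates of a group are separate trees, per the series' design text.

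In control leaves, the levels used by the rule, the members averaged between 491 and 30927 CPM, with a median of 1197 and quartiles of 752 and 1833. In control roots the same transcripts averaged between 0.441 and 1438 CPM, with a median of 10.7. The leaf-to-root ratio therefore ran from 4.05 to 2054, with a median of 104. It was 500 or over for 44 members, 100 to 500 for 33, 10 to 100 for 43 and 4 to 10 for 30. The most abundant member was Ciclev10012893m.g, at 30927 ± 3170 CPM in leaves (SD, n = 11) and 18.9 CPM in roots. The next was Ciclev10031443m.g, at 23906 ± 2433 CPM in leaves (SD, n = 11) and 36.5 CPM in roots. The rule's limits cut through a continuous range of levels. The last members by rank, Ciclev10000828m.g and Ciclev10016210m.g, had 493 and 491 CPM, and the first genes left out by rank, Ciclev10022909m.g and Ciclev10030042m.g, had 483 and 472 CPM. The members nearest the ratio limit, Ciclev10028384m.g and Ciclev10004137m.g, had ratios of 4.05 and 4.08, and the nearest genes outside it, Ciclev10029531m.g and Ciclev10014741m.g, both had 3.87. Ciclev10029531m.g, with 5489 CPM in control leaves and 1419 CPM in control roots, was kept out by this limit in spite of its high leaf level.

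**Figure D1:**
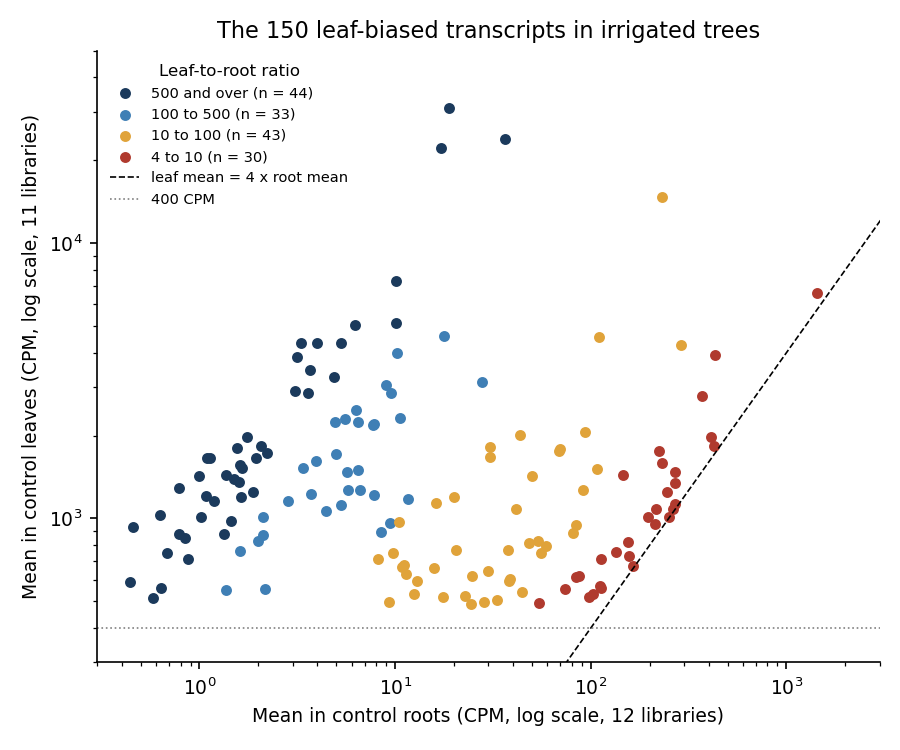
Mean level of each of the 150 transcripts in control leaves (vertical axis, CPM, log scale, 11 libraries) against control roots (horizontal axis, CPM, log scale, 12 libraries), coloured by leaf-to-root ratio, with lines at the rule's 400 CPM and 4-fold limits. Leaf means run from 491 to 30927 CPM, and the 44 members with a ratio of 500 or over lie at the left, at low root levels.

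Together the 150 transcripts took a much smaller share of the leaf counts in drought-exposed trees than in irrigated ones. Their share averaged 17.7 ± 7.63% in WD leaves (SD, n = 15) and 32.0 ± 1.88% in Ctrl leaves (SD, n = 11). In PL4x it was 8.02, 25.2, 10.5 and 7.64% in the WD libraries, against 35.7, 31.7 and 33.0% in the Ctrl libraries. In PL2x it was 31.2, 13.3 and 25.8% in WD and 33.8 and 32.3% in Ctrl. In ML4x it was 29.4, 23.4, 15.9 and 17.6% in WD and 31.6, 30.4 and 31.8% in Ctrl. In ML2x it was 18.7, 14.2, 12.5 and 11.7% in WD and 31.5, 28.3 and 31.3% in Ctrl. Within each combination every WD library lay below every Ctrl library, by a wide margin in PL4x and ML2x and by about 1 percentage point for the highest WD library of PL2x and of ML4x. Because the rule took these genes for their high level in the same Ctrl leaves, this is a description and no test was made of it. The 105 genes that passed the same 400 CPM floor in Ctrl leaves without being leaf-biased took 8.72 ± 0.771% of the counts in WD leaves (SD, n = 15) and 8.86 ± 1.06% in Ctrl leaves (SD, n = 11).

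**Figure D2:**
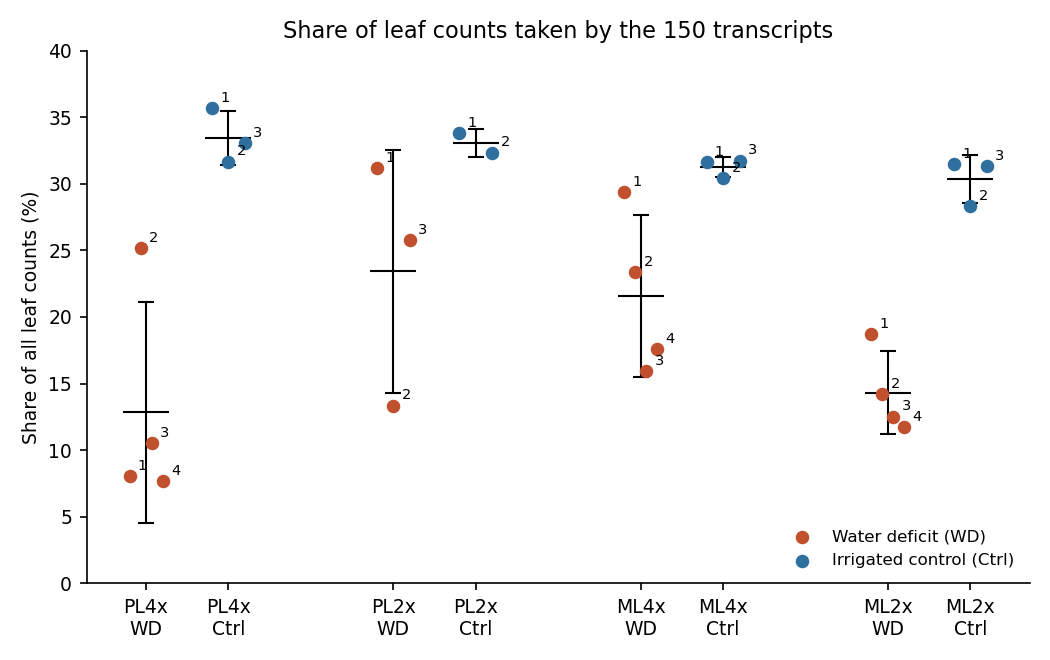
Share of all leaf counts (vertical axis, %) taken by the 150 transcripts in each leaf library, by combination and treatment, with points numbered by replicate and bars for mean ± SD. Every WD library lies below the Ctrl libraries of its combination, and PL4x WD 2 (25.2%), PL2x WD 1 (31.2%) and ML4x WD 1 (29.4%) lie highest in their WD groups.

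The fall of the summed level was spread unevenly over the members. Their mean levels summed to 176671 CPM in WD leaves and 319503 CPM in Ctrl leaves, and 137 members had a lower and 13 a higher mean in WD. The 4 most abundant members carried 36.0% of the summed difference, the first 10 carried 45.7% and the first 50 carried 76.5%. Ciclev10012893m.g alone took 1.10 ± 0.903% of the counts in WD leaves (SD, n = 15) and 3.09 ± 0.317% in Ctrl leaves (SD, n = 11). The number of members at 400 CPM or over ran from 54 to 148 in single WD leaf libraries and from 138 to 149 in Ctrl leaf libraries. Of the 150 most abundant genes of a library, members made up 31 to 111 in WD leaves and 107 to 118 in Ctrl leaves, so in some WD libraries other genes had taken most of the leading places.

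Gene by gene, 125 of the 150 members fell in WD leaves and 3 rose, where each of the 4 combinations counted equally (edgeR's quasi-likelihood test, Benjamini-Hochberg adjusted p under 0.05 over all 19140 genes tested in leaves). All 150 members passed the filter on low counts, in leaves and in roots. Of all genes tested, 20.3% were called lower and 27.8% called higher. The members' share called lower was 83.3% and that called higher 2.0%, but every contrast against Ctrl leaves shares those libraries with the rule, so these counts are read as a description. The median log2 fold change was -1.07 over the members, with quartiles of -1.48 and -0.66, and 0.09 over all genes. Of the 125, 80 fell more than 2-fold and 12 more than 4-fold. The share of all genes past these fold limits is not given here, so both counts only describe the members. The 22 members that did not pass the test had fitted values below 0 in 17 cases and above 0 in 5. Without the leaf libraries PL2x WD 1 and ML4x WD 1, 127 members fell and 3 rose, where 21.7% of all genes were called lower and 28.4% higher, with a median of -1.22. Without PL4x WD 2, 137 fell and 3 rose, where 23.5% were called lower and 29.5% higher, with a median of -1.20. Fold changes here are on library sizes scaled by TMM, a scaling that trims the most changed genes. Scaling by column totals alone moved the median of all genes to 0.33, a shift of 0.24. It left 111 members lower and 5 higher, and the share of all genes called in that fit is not given here.

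A choice of members on one scion and a response in the other compares levels from different libraries. The calls still come from the fit of all 26 leaf libraries. Its spread per gene, its filter and its scaling also use the libraries of the choice. The 150 genes chosen by the same rule from ML controls alone shared 136 genes with the list. In PL leaves 86 of them fell and 5 rose, where 13.6% of all genes were called lower and 21% higher, with a median log2 fold change of -1.12. The 150 chosen from PL controls alone shared 140, and in ML leaves 85 of them fell and 4 rose, where 10.9% of all genes were called lower and 12.7% higher, with a median of -1.02. Of the 105 abundant genes that are not leaf-biased, 44 fell and 12 rose over the 4 combinations, with a median of -0.29. Of the 23 leaf-biased genes below the 150 highest, 13 fell and 2 rose, with a median of -0.65. For both of these lists the share of all genes, over the 4 combinations, was 20.3% called lower and 27.8% higher.

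The combinations differed in how many members passed the test. In PL4x 104 members fell and 3 rose, 69.3% of the members being lower, where 12.3% of all genes were called lower and 16.6% higher. The median of the members was -1.69, and without PL4x Ctrl 1 a single member rose. In ML2x 56 fell and 1 rose, 37.3% being lower, where 5.35% of all genes were called lower and 5.96% higher, with a median of -1.40. The ML2x calls in both directions came to 1 without ML2x Ctrl 1 or ML2x Ctrl 3, 12 without ML2x Ctrl 2, ML2x WD 2 or ML2x WD 3, and 9 without ML2x WD 4, where these fits called 0.141 to 2.06% of all genes lower and 0.199 to 3.28% higher. In ML2x DESeq2 called 96 members, where it called 8.15% of all genes lower and 8.52% higher. Limma-voom with quality weights called 128 members there, where it called 19.3% lower and 17.8% higher. In ML4x 0 members passed edgeR's test in either direction, where 0.256% of all genes were called lower and 0.298% higher, with a median of -0.71. At an unadjusted p under 0.05, 46 members passed in ML4x. The share of all genes at that threshold was not computed, so this count cannot be set beside the adjusted shares. DESeq2 called 6 members there, where it called 1.83% of all genes lower and 2.38% higher, and limma-voom with quality weights called 103, where it called 16.8% lower and 15.9% higher. In PL2x 0 members passed edgeR's test, where 0% of all genes were called lower and 0% higher, with a median of -0.64. At an unadjusted p under 0.05, 26 members passed in PL2x, of which 25 were lower, again with no share of all genes at that threshold. DESeq2 called 6 members there, where it called 2.74% of all genes lower and 7.15% higher, and limma-voom with quality weights called 28, where it called 9.18% lower and 8.87% higher. Without PL2x WD 1, 18 members fell in PL2x by edgeR's test, where 3.35% of all genes were called lower and 6.5% higher. Without ML4x WD 1, 5 fell in ML4x, where 1.23% were called lower and 1.39% higher. Fitted fold changes lay below 0 in all 4 combinations for 121 members and above 0 in all 4 for 3. That count was not made over all genes and shares the Ctrl leaves with the rule, so it is a description. Called lower in both PL4x and ML2x were 51 members, or 49% of those lower in PL4x and 91.1% of those lower in ML2x, where the shares over all genes were 27.4% and 62.9%.

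**Figure D3:**
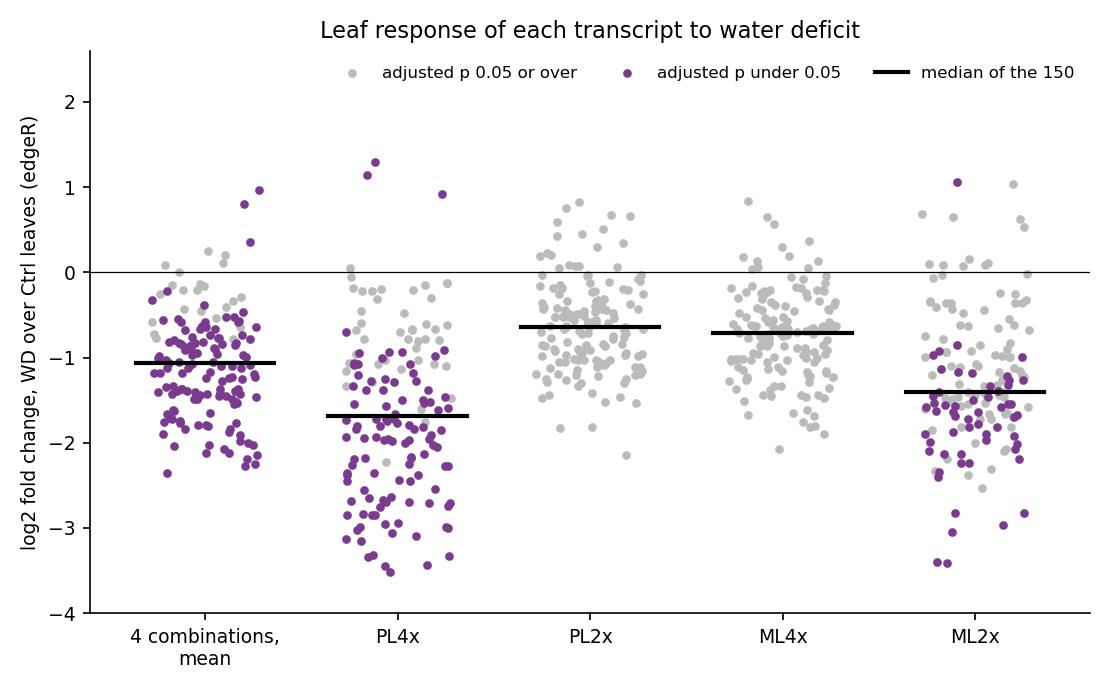
Fitted log2 fold change of each of the 150 transcripts, WD over Ctrl leaves (vertical axis), for the mean of the 4 combinations and for each combination, with calls at an adjusted p under 0.05 in purple and the median as a bar. The medians are -1.07 for the mean, -1.69 in PL4x, -0.64 in PL2x, -0.71 in ML4x and -1.40 in ML2x, and no member was called in PL2x or ML4x.

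The WD libraries of a combination differed widely. The median log2 difference of the members from the mean of their own controls was -2.29, -0.42, -1.84 and -2.32 in the PL4x WD libraries. It was -0.13, -1.21 and -0.43 in PL2x, -0.16, -0.49, -1.01 and -0.89 in ML4x, and -0.75, -1.11, -1.37 and -1.48 in ML2x. The median was below 0 in all 15 WD libraries, and within PL4x and within PL2x it ranged more widely than the fitted medians of the 4 combinations. In each PL4x WD library 134, 87, 129 and 132 of the 150 members lay below all PL4x controls. In PL2x 62, 125 and 100 members did so, in ML4x 78, 105, 124 and 117, and in ML2x 122, 127, 127 and 133. Over all 15 WD libraries, 48 members lay below their own control mean in every one and 2 lay above it in every one. The same counts were not made over all genes, and the rule chose the members for high levels in these controls. They are given as a description of the libraries and not as a result about the members.

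The 2 most abundant transcripts show these library differences. Ciclev10012893m.g had 1055, 19540, 2238 and 1003 CPM in PL4x WD leaves, against 32096, 26839 and 36319 CPM in PL4x Ctrl leaves. In PL2x it had 27072, 5719 and 21621 CPM in WD and 33695 and 31743 CPM in Ctrl. In ML4x it had 26224, 16578, 6226 and 9153 CPM in WD and 30724, 29367 and 32913 CPM in Ctrl. In ML2x it had 12812, 7402, 5091 and 3694 CPM in WD and 31044, 24721 and 30730 CPM in Ctrl. WD and Ctrl leaves did not overlap in any single combination, and 13 of the 15 WD libraries lay below all 11 Ctrl libraries. The fitted log2 fold change was -1.79 ± 0.42 (SE, edgeR's quasi-likelihood adjusted p = 0.0017). Ciclev10031443m.g had a lowest, median and highest level of 2756, 9325 and 27577 CPM in WD leaves (n = 15), against 20921, 23896 and 28396 CPM in Ctrl leaves (n = 11). Here 11 of the 15 WD libraries lay below all Ctrl libraries, and PL4x WD 2, PL2x WD 1, PL2x WD 3 and ML4x WD 1, at 22671, 27577, 23785 and 27405 CPM, lay within their range. Its log2 fold change was -1.19 ± 0.32 (SE, edgeR's quasi-likelihood adjusted p = 0.0042).

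The transcripts with the strongest falls over the 4 combinations were Ciclev10022706m.g and Ciclev10024455m.g, ranks 71 and 103 by control leaf level. Ciclev10022706m.g had a lowest, median and highest level of 79.4, 177 and 1098 CPM in WD leaves (n = 15), against 524, 1205 and 1817 CPM in Ctrl leaves (n = 11). Both groups overlapped only through PL2x WD 1, at 1098 CPM, and PL2x WD 3, at 643 CPM. It fell with a log2 fold change of -2.35 ± 0.37 (SE, edgeR's quasi-likelihood adjusted p = 6.5e-05). Ciclev10024455m.g had a lowest, median and highest level of 36.1, 110 and 1065 CPM in WD leaves (n = 15), against 503, 664 and 1683 CPM in Ctrl leaves (n = 11). The same PL2x WD libraries, at 1065 and 603 CPM, were the only ones within the control range. The log2 fold change of Ciclev10024455m.g was -2.27 ± 0.42 (SE, edgeR's quasi-likelihood adjusted p = 0.00026). These transcripts differ in how closely they are tied to the leaf. Ciclev10022706m.g had a control leaf-to-root ratio of 5.08 and Ciclev10024455m.g one of 1005.

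The 3 members that passed the test for a rise are given next. Ciclev10008742m.g had 2312, 1310, 2661 and 1834 CPM in PL4x WD leaves, against 533, 965 and 749 CPM in PL4x Ctrl leaves. In PL2x it had 902, 2540 and 1219 CPM in WD and 647 and 800 CPM in Ctrl. In ML4x, where one WD library lay inside the control range, it had 894, 1943, 1947 and 1681 CPM in WD and 682, 980 and 633 CPM in Ctrl. In ML2x it had 2178, 1755, 1988 and 2090 CPM in WD and 872, 792 and 810 CPM in Ctrl. It was above all Ctrl leaves in 13 of 15 WD libraries, with a log2 fold change of 0.97 ± 0.16 (SE, edgeR's quasi-likelihood adjusted p = 1e-04). Ciclev10004620m.g had a lowest, median and highest level of 1245, 2846 and 5987 CPM in WD leaves (n = 15), against 762, 1653 and 2184 CPM in Ctrl leaves (n = 11). It was above all Ctrl leaves in 11 of 15 WD libraries, with a log2 fold change of 0.80 ± 0.19 (SE, edgeR's quasi-likelihood adjusted p = 0.0015). The remaining one, named after its values were seen, was Ciclev10004757m.g, with 507, 758 and 1409 CPM as lowest, median and highest in WD leaves (n = 15), against 339, 570 and 729 CPM in Ctrl leaves (n = 11). Its log2 fold change of 0.35 ± 0.14 passed narrowly (SE, edgeR's quasi-likelihood adjusted p = 0.048), and 25 of 35 other settings or left-out libraries put it over the threshold, with adjusted p from 0.0034 to 0.24.

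**Figure D4:**
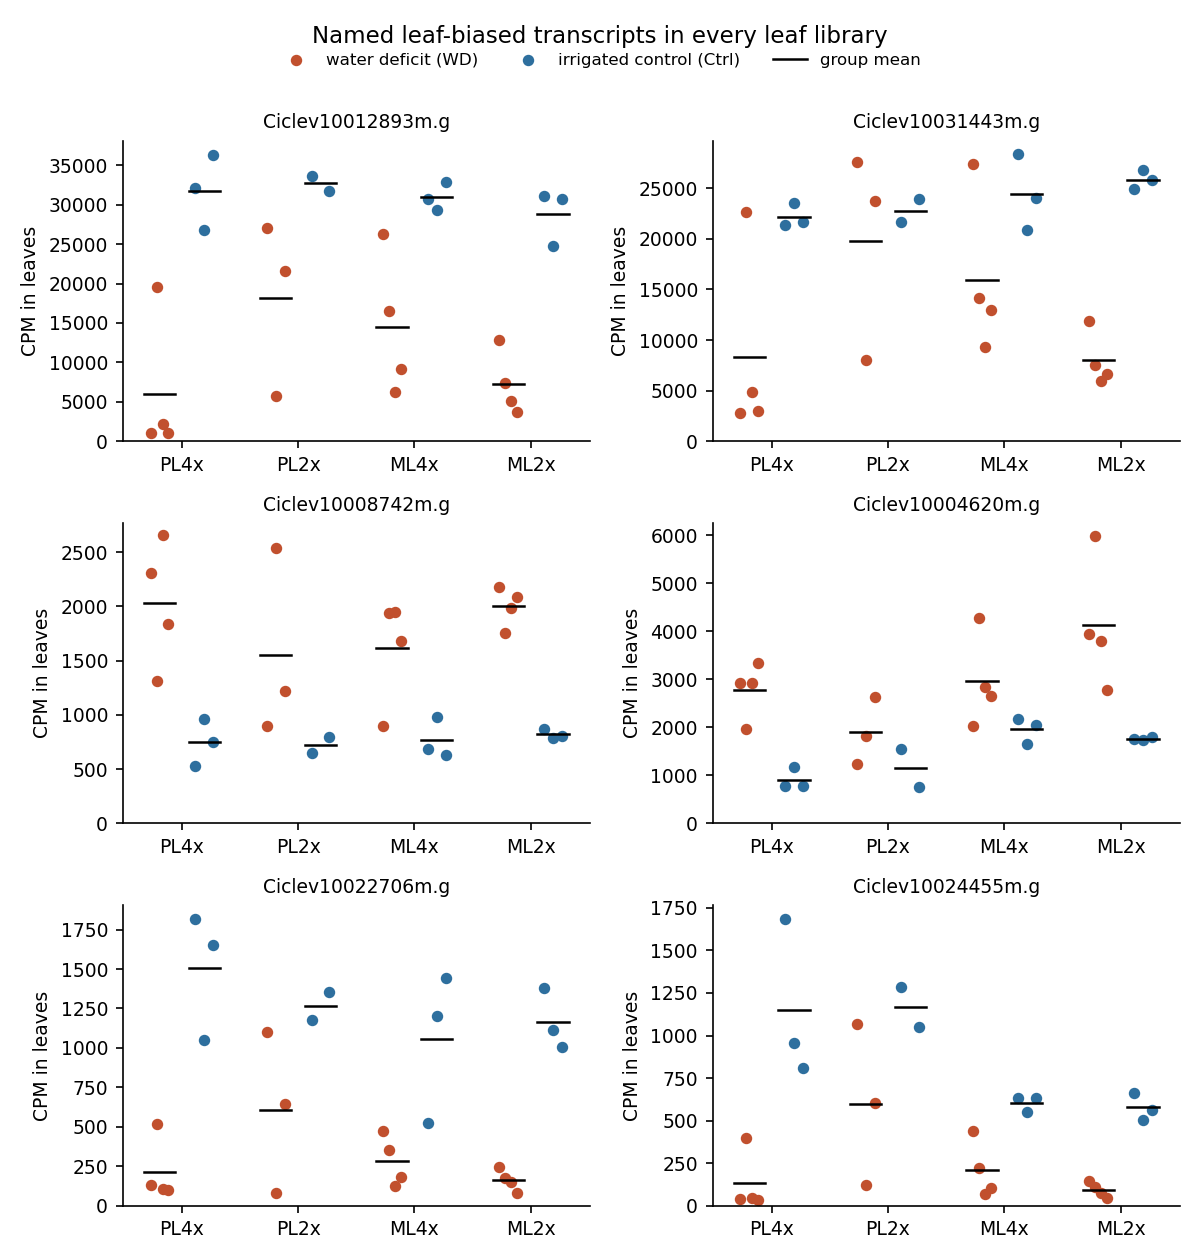
Level in every leaf library (vertical axes, CPM) of the most abundant members Ciclev10012893m.g and Ciclev10031443m.g, of Ciclev10008742m.g and Ciclev10004620m.g, which rose, and of Ciclev10022706m.g and Ciclev10024455m.g, which fell most, by combination, with group means as bars. In PL4x the point standing apart from the other WD libraries is PL4x WD 2, at 19540 CPM for Ciclev10012893m.g, where the others have 1003 to 2238 CPM.

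Within PL4x the strongest falls were those of Ciclev10024455m.g and Ciclev10002687m.g. Ciclev10002687m.g had 314, 965, 402 and 247 CPM in PL4x WD leaves, against 6536, 3141 and 2421 CPM in PL4x Ctrl leaves, and the groups did not overlap. In PL4x it changed on the log2 scale by -3.45 ± 0.64 (SE, edgeR's quasi-likelihood adjusted p = 0.0015). That of Ciclev10024455m.g, with 40.7, 399, 45.7 and 36.1 CPM in PL4x WD leaves, against 1683, 959 and 810 CPM in PL4x Ctrl leaves, was -3.51 ± 0.83 (SE, edgeR's quasi-likelihood adjusted p = 0.0049). The highest rises in PL4x were 1.30 ± 0.36 for Ciclev10004620m.g (SE, edgeR's quasi-likelihood adjusted p = 0.011) and 1.14 ± 0.30 for Ciclev10008742m.g (SE, edgeR's quasi-likelihood adjusted p = 0.0092). Without PL4x Ctrl 1 the adjusted p of Ciclev10008742m.g was 0.051. In ML2x the strongest falls were those of Ciclev10001812m.g and Ciclev10000220m.g. Ciclev10001812m.g had 423, 64.2, 85.9 and 160 CPM in ML2x WD leaves, against 1873, 1329 and 1803 CPM in ML2x Ctrl leaves, a log2 fold change of -3.42 ± 0.81 (SE, edgeR's quasi-likelihood adjusted p = 0.017). Ciclev10000220m.g had 176, 45.4, 102 and 145 CPM in ML2x WD leaves, against 1067, 1216 and 893 CPM in ML2x Ctrl leaves, a log2 fold change of -3.40 ± 0.81 (SE, edgeR's quasi-likelihood adjusted p = 0.017). Neither had overlapping groups in ML2x, though leaving out ML2x Ctrl 1 or ML2x Ctrl 3 ended the call of each, with adjusted p from 0.057 to 0.064, and leaving out ML2x WD 2 that of Ciclev10000220m.g, at 0.050. The member that rose in ML2x was Ciclev10008742m.g, by 1.06 ± 0.30 on the log2 scale (SE, edgeR's quasi-likelihood adjusted p = 0.031), a call that leaving out any ML2x library but ML2x WD 1 ended, with adjusted p from 0.059 to 0.099.

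Members with a leaf-to-root ratio of 100 or over in irrigated trees had lower median fold changes in leaves than those under 100. The ratio and the response share the Ctrl leaves, and no test was made. Of all genes tested in leaves, 20.3% were called lower and 27.8% higher. Of the 44 members with a control ratio of 500 or over, 41 fell, with a median log2 fold change of -1.35. Of the 33 with a ratio of 100 to 500, 28 fell, with a median of -1.10. Of the 43 with a ratio of 10 to 100, 35 fell, with a median of -0.83, and of the 30 with a ratio of 4 to 10, 21 fell, with a median of -0.87. In PL4x the medians over the same classes were -2.18, -1.93, -1.25 and -1.07. In PL2x they were -0.85, -0.71, -0.56 and -0.36, and in ML2x -1.56, -1.43, -1.17 and -1.20. They differed least in ML4x, at -0.77, -0.75, -0.58 and -0.63. Rank by level showed a smaller spread of medians over the 4 combinations. Among the 10 most abundant members 9 fell, among ranks 11 to 50 34 of 40 fell, and among ranks 51 to 150 82 of 100 fell and 3 rose, with medians of -1.16, -1.24 and -0.98.

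The members moved together from one WD tree to another. The SD of log2 CPM within groups had a median over members of 0.715 in WD leaves and 0.265 in Ctrl leaves, and was larger in WD for 141 of 150. After group means were removed, the Pearson correlation of log2 CPM between members, over 11175 pairs, had a median of 0.709 over the 15 WD leaf libraries and 0.056 over the 11 Ctrl leaf libraries. These values describe the libraries, since all members of a library share its RNA, its depth and its total. They were not computed for other genes, so they do not set the members apart from them. The members most like Ciclev10012893m.g over the 26 leaf libraries, by the same measure, were Ciclev10015874m.g (r = 0.984) and Ciclev10002404m.g (r = 0.983), ranks 11 and 87 by level. For 83 of the other 149 members this r was over 0.8 and for 12 it was below 0. It was lowest for Ciclev10008742m.g and Ciclev10004757m.g, both of which rose, at -0.62 and -0.74.

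The leaf bias itself was still present in the WD trees, none of which the rule had used. In a fit of the 30 WD libraries, all 150 members were higher in leaves than in roots and 0 were lower, where 32.6% of the 20758 genes tested were called higher and 42.4% called lower in leaves (edgeR's quasi-likelihood test). This fit took leaf and root libraries as independent, though the same trees may have given both. The log2 ratio of leaves over roots ran from 1.03 to 9.24, with a median of 6.43 over the members and -0.15 over all genes. The highest was that of Ciclev10013119m.g, with 886, 1907 and 3798 CPM as lowest, median and highest in WD leaves (n = 15), against 0.856, 1.93 and 16.6 CPM in WD roots (n = 15). Its log2 ratio was 9.24 ± 0.55 (SE, edgeR's quasi-likelihood adjusted p = 2.9e-14). Ciclev10001677m.g followed, with 309, 1329 and 1679 CPM in WD leaves, against 0.471, 1.47 and 9.72 CPM in WD roots, at 9.08 ± 0.54 (SE, edgeR's quasi-likelihood adjusted p = 2.4e-14). The lowest log2 ratios were 1.03 ± 0.18 for Ciclev10031039m.g (SE, edgeR's quasi-likelihood adjusted p = 8.6e-06) and 1.19 ± 0.14 for Ciclev10028384m.g (SE, edgeR's quasi-likelihood adjusted p = 2.3e-08). Ciclev10031039m.g had 505, 719 and 1532 CPM in WD leaves, against 315, 498 and 804 CPM in WD roots, so that single leaf and root libraries overlapped.

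The Ctrl ratio is the value the rule selected on, for high leaf and low root levels, so the WD ratio is set beside it as a description only. The ratio of mean leaf to mean root CPM had a median of 71.6 in WD trees and 104 in Ctrl trees, and was higher in WD for 14 members. The WD leaf means ran from 194 to 12585 CPM, with a median of 674. When the rule was applied to the WD libraries, 136 genes met both thresholds and 106 of them were members. Of the members, 31 were under 400 CPM in WD leaves and 15 had a ratio under 4. Of the top members, 8 of the 10 most abundant members in Ctrl leaves were also among the 10 most abundant members in WD leaves. Of the 150 most abundant genes, members made up 77 by the mean of WD leaves and 110 by the mean of Ctrl leaves.

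In roots the members took a small share of the counts, though 4 of them averaged over 400 CPM in Ctrl roots and 4 to 7 reached that level in single WD root libraries, against 2 to 6 in Ctrl root libraries. Their share was 1.00 ± 0.0897% in WD roots (SD, n = 15) and 0.986 ± 0.0473% in Ctrl roots (SD, n = 12). Over the 4 combinations 47 members rose and 24 fell, or 31.3% and 16.0%, where 27.3% of the 20452 genes tested in roots were called higher and 30.7% lower (edgeR's quasi-likelihood test). The rule also set a ceiling on the level in these Ctrl roots, so the root contrasts share libraries with it and are given as a description, and the share called higher was near that over all genes. The median log2 fold change was 0.35 over the members and -0.02 over all genes. Without ML2x WD 2 and PL4x WD 3 of roots, 37 members rose and 29 fell, where 25% of all genes were called higher and 28.5% lower, with a median of 0.07. In PL4x roots 21 members rose and 9 fell, where 8.9% of all genes were called higher and 9.64% lower. In PL2x roots 5 rose and 4 fell, where 2.31% were called higher and 1.45% lower. In ML4x roots 5 rose and 11 fell, where 6.38% were called higher and 7.97% lower. In ML2x roots 34 rose and 15 fell, where 16.5% were called higher and 22.9% lower. Of the 125 members that fell in leaves, 34 (27.2%) rose and 23 (18.4%) fell in roots. Of the 3666 genes called lower in leaves and tested in roots, 13.5% rose and 47.2% fell in roots. The 3 members that rose in leaves also rose in roots, as did 48.2% of the 5177 genes called higher in leaves.

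By leaf-to-root ratio, a class and its root response share the Ctrl root libraries, a high ratio requiring a low Ctrl root level, so the following is a description. Of all genes tested in roots, 27.3% were called higher and 30.7% lower. Of the 30 members with a ratio of 4 to 10, 11 rose and 11 fell in roots, with a median log2 fold change of -0.03. Of the 43 with a ratio of 10 to 100, 18 rose and 11 fell, with a median of 0.08, and of the 33 with a ratio of 100 to 500, 7 rose and 2 fell, with a median of 0.09. Of the 44 members with a ratio of 500 or over, 11 rose and 0 fell in roots, with a median log2 fold change of 0.85. The share of this class called higher did not exceed that over all genes. Without ML2x WD 2 and PL4x WD 3, 5 rose and 0 fell, with a median of 0.20, where 25% of all genes were called higher and 28.5% lower. Without ML2x WD 2 alone the median of the class was 0.63, and without PL4x WD 3 alone it was 0.43. The summed level of the 44 members in root libraries ran from 77.5 to 1244 CPM in WD, with a median of 140, and from 77.1 to 373 CPM in Ctrl, with a median of 115. The highest sums were 1244 CPM in ML2x WD 2, 733 CPM in PL4x WD 3 and 601 CPM in ML2x WD 4, and the last of these libraries had the lowest total, 1118899 counts. Across the 44 members, log2 level in a root library and log2 mean level in Ctrl leaves correlated with r between 0.80 and 0.98 in every root library, WD and Ctrl alike. The class holds ratios of 500 to 2054 only, a narrower range than that of its leaf levels. A high r in Ctrl roots is therefore largely set by the choice of the class, and r is given as a description. Whether leaf RNA in root libraries plays a part in these root levels was not tested.

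The members named next passed the test in roots, with WD and Ctrl libraries overlapping to different degrees. Ciclev10004620m.g, which rose in leaves, had a lowest, median and highest level of 435, 860 and 1133 CPM in WD roots (n = 15), against 137, 230 and 613 CPM in Ctrl roots (n = 12). Its log2 fold change in roots was 1.79 ± 0.19 (SE, edgeR's quasi-likelihood adjusted p = 1.5e-07). Ciclev10004757m.g had the highest rise, with 1.36, 4.61 and 23.8 CPM in WD roots and 0.816, 1.16 and 2.90 CPM in Ctrl roots, a log2 fold change of 2.27 ± 0.38 (SE, edgeR's quasi-likelihood adjusted p = 3.9e-05). Ciclev10008762m.g, at the lowest levels of these, had 0.215, 1.35 and 6.52 CPM in WD roots and 0, 0.317 and 1.36 CPM in Ctrl roots. Its log2 fold change was 2.07 ± 0.49 (SE, edgeR's quasi-likelihood adjusted p = 0.0011), and 1.75 without ML2x WD 2 and PL4x WD 3 (adjusted p = 0.005). The strongest falls were those of Ciclev10014199m.g and Ciclev10000220m.g, both close to the ratio limit in Ctrl trees. Ciclev10014199m.g had 7.91, 19.7 and 95.9 CPM in WD roots, against 62.5, 195 and 681 CPM in Ctrl roots, a log2 fold change of -2.87 ± 0.36 (SE, edgeR's quasi-likelihood adjusted p = 1.3e-06). Ciclev10000220m.g had 15.2, 48.1 and 76.5 CPM in WD roots, against 45.5, 241 and 386 CPM in Ctrl roots, a log2 fold change of -2.18 ± 0.29 (SE, edgeR's quasi-likelihood adjusted p = 2.7e-06). Of the 15 WD root libraries, 13 lay above all Ctrl roots for Ciclev10004620m.g, 11 for Ciclev10004757m.g and 7 for Ciclev10008762m.g. Below all Ctrl roots lay 13 for Ciclev10014199m.g and 7 for Ciclev10000220m.g.

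**Figure D5:**
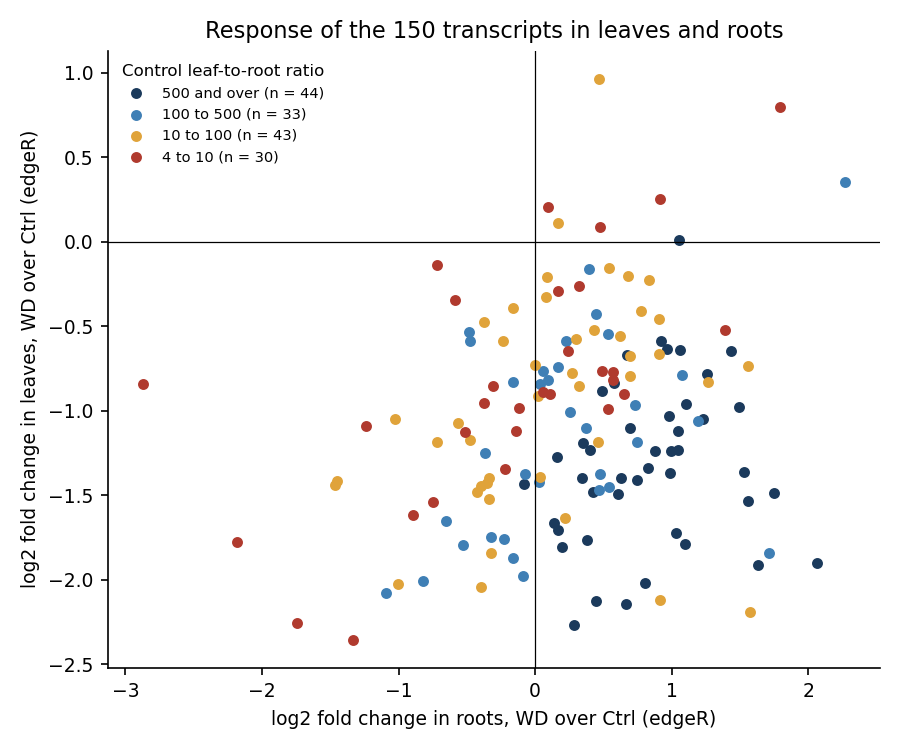
Fitted log2 fold change of each of the 150 transcripts in roots (horizontal axis) and in leaves (vertical axis), WD over Ctrl, mean of the 4 combinations, coloured by the leaf-to-root ratio in Ctrl trees. Most points lie below 0 in leaves (median -1.07), on both sides of 0 in roots (median 0.35), and the members with a ratio of 500 or over lie mostly to the right. The root median of that class is 0.85, and 0.20 without root libraries ML2x WD 2 and PL4x WD 3. The class and the root axis share the Ctrl roots.

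The count of members that differed between the scions depended on the test. In Ctrl leaves 6 members were higher and 1 lower in PL than in ML, where 6.18% of all genes were called higher and 6.23% lower (edgeR's quasi-likelihood test). The median log2 difference, PL over ML, was 0.25 over the members, and 4 members differed without PL2x Ctrl 1, where 3.43% of all genes were called higher and 1.56% lower. DESeq2 called 14 members higher and 2 lower, where it called 8.57% of all genes higher and 8.96% lower. Limma-voom with quality weights called 13 higher and 8 lower, where it called 10% higher and 10% lower. Ciclev10030439m.g had 3207, 1371, 1443, 1654 and 1378 CPM in PL Ctrl leaves (n = 5), against 319, 460, 384, 355, 245 and 281 CPM in ML Ctrl leaves (n = 6). The scions did not overlap, and the log2 difference was 2.50 ± 0.41 (SE, edgeR's quasi-likelihood adjusted p = 0.00031). Ciclev10013191m.g had 1221, 1182, 726, 1082 and 621 CPM in PL Ctrl leaves, against 201, 307, 164, 204, 178 and 205 CPM in ML Ctrl leaves, at 2.29 ± 0.40 (SE, edgeR's quasi-likelihood adjusted p = 0.00066). The member that was lower in PL was Ciclev10014199m.g, with 476, 494, 558, 270 and 592 CPM in PL Ctrl leaves, against 1709, 1740, 1210, 1500, 2093 and 1783 CPM in ML Ctrl leaves, at -1.73 ± 0.54 (SE, edgeR's quasi-likelihood adjusted p = 0.039). Its groups did not overlap, but its adjusted p was between 0.056 and 0.18 in 8 of the fits that left out 1 library, those without PL4x Ctrl 1, PL4x Ctrl 2, either PL2x Ctrl, ML4x Ctrl 1, ML4x Ctrl 2, ML2x Ctrl 2 or ML2x Ctrl 3. The limes are different species counted against gene models of another citrus, so expression and mapping cannot be told apart in these differences.

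In WD leaves 5 members were higher and 1 lower in PL than in ML, where 3.73% of all genes were called higher and 1.98% lower (edgeR's quasi-likelihood test), with a median of 0.15. Without PL4x WD 2 the members that differed numbered 19, of which 14 were lower in PL, where 5.75% of all genes were called higher and 5.61% lower. DESeq2 called 6 members higher and 5 lower, where it called 4.34% higher and 3.11% lower. Limma-voom with quality weights called 11 higher and 18 lower, where it called 12.9% higher and 11.6% lower. Ciclev10030439m.g, which differed between the scions in Ctrl leaves, had 245, 478, 301, 166, 1112, 271 and 633 CPM in PL WD leaves, against 190, 255, 105, 96.4, 136, 167, 84.4 and 92.9 CPM in ML WD leaves. Its log2 difference was 1.75 ± 0.34 (SE, edgeR's quasi-likelihood adjusted p = 0.0019), and 2 of the PL libraries lay within the range of ML. Ciclev10019727m.g, with 524, 747, 650, 506, 612, 658 and 547 CPM in PL WD leaves, against 240, 282, 126, 173, 201, 170, 390 and 310 CPM in ML WD leaves, had no overlap and a log2 difference of 1.42 ± 0.23 (SE, edgeR's quasi-likelihood adjusted p = 0.00023). The member lower in PL was Ciclev10016286m.g, at -0.96 ± 0.23 (SE, edgeR's quasi-likelihood adjusted p = 0.012). Its levels were 740, 853, 1238, 608, 1511, 964 and 1158 CPM in PL WD leaves and 2118, 3393, 2357, 1419, 1796, 2011, 2026 and 1549 CPM in ML WD leaves, with PL2x WD 1 alone inside the range of ML.

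No member passed edgeR's test for the ploidy of the rootstock in leaves, at this number of trees. In Ctrl leaves 0 members differed between 4x and 2x rootstocks, where 0% of all genes were called in either direction, with 1 member at an unadjusted p under 0.05, 0 called by DESeq2 and 0 by limma-voom (edgeR's quasi-likelihood test). In WD leaves 0 members differed, where 0% of all genes were called in either direction, with 4 members at an unadjusted p under 0.05, 0 by DESeq2 and 81 by limma-voom with quality weights, which called 10.7% of all genes higher and 10.3% lower. Leaving out PL4x WD 2 gave 11 calls by edgeR in WD leaves, all lower on 4x, where 1.05% of all genes were called higher and 1.33% lower. The response to water deficit was compared between groups in the same fit. Between the scions 0 members differed in response, where 0% of all genes were called higher and 0.00522% lower, with 11 members at an unadjusted p under 0.05, 0 by DESeq2 and 4 by limma-voom with quality weights, which called 1.46% of all genes higher and 1.77% lower. Between the rootstocks under PL 0 members differed, where 0% were called in either direction, with 10 at an unadjusted p under 0.05, 0 by DESeq2 and 100 by limma-voom with quality weights, which called 12.5% of all genes higher and 13.7% lower. The median difference in log2 response, PL4x over PL2x, was -1.08, and without PL4x WD 2 edgeR called 63 members, all lower, where 4% of all genes were called higher and 5.54% lower. Between the rootstocks under ML 0 members differed, where 0% were called in either direction, with 1 at an unadjusted p under 0.05, 0 by DESeq2 and 0 by limma-voom with quality weights. The median difference there, ML4x over ML2x, was 0.58. The calls for the rootstock under PL thus depended on PL4x WD 2 and on the test used. For the counts at an unadjusted p under 0.05, the share of all genes at that threshold was not computed.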

How the data were processed

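Leaf and root RNA, 1 µg in total per library, was sequenced after a stranded mRNA preparation, per the labels' protocols. The authors deposited raw whole-number counts per gene, and the submitters' processing notes name Trimmomatic and HTSeq. The aligner and build, like the strand setting of the counting, were not given in the sources used here, so overlapping, antisense and near-identical genes may share reads. CPM uses column totals. The filterByExpr filter, applied by group, left 19140 genes in leaves, 20452 in roots and 20758 in the WD libraries of both tissues. Each set was fitted with edgeR 4.0.16 (R 4.3.3, TMM, a coefficient per group, glmQLFit with robust set, glmQLFTest) and called at a Benjamini-Hochberg adjusted p under 0.05 over all genes tested. The SE is the log2 fold change divided by the root of F. DESeq2 1.42.0 and limma 3.58.1 (voom with quality weights) were alternatives, beside other scalings, filters, member rules and left-out libraries. Scaling by column totals and leaving out the pairs of libraries that stood apart were chosen after seeing the data. The fits were tested on simulated data. The simulation gave WD and Ctrl libraries the same spread per gene, so the larger spread of the members in WD leaves was not covered.

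The members, the comparisons and the rule for named genes were chosen with earlier results of these data known. Named are the 2 most abundant members, the 2 highest and 2 lowest called members of a contrast, the genes on either side of a threshold and the 2 members most like the most abundant one. Depth was 3747153 to 54838385 counts per leaf library and 1118899 to 27925992 per root library. Of 64 pairs of libraries within groups, none agreed within sampling noise, the smallest chi-square per gene being 16.4. The labels give WD and Ctrl libraries of a combination like numbers, but same-numbered libraries correlated between -0.133 and 0.327 in leaves and between -0.389 and 0.315 in roots, and different trees bore them, so they were not treated as pairs. Same-numbered leaf and root libraries of WD trees, PL2x left aside, correlated between -0.233 and 0.390, with 5 of 12 over 0.1. The leaf-over-root fit took them as independent, though the same trees may have given both.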

Additional observations from a re-analysis of the deposited data

Results flagged for a closer look

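Of 72 groups of 4 libraries examined for a library far from the other 3, 14 had one, where chance flags about 1 in 20 groups. The groups are not independent, since the members share libraries, so the count is not set against that rate. The leaf library PL4x WD 2 accounts for 9 of the flags. The members' share of leaf counts was 25.2% in it and 7.64 to 10.5% in the other PL4x WD libraries. Ciclev10012893m.g stood at 19540 CPM in it (others 1003 to 2238), Ciclev10031443m.g at 22671 CPM (2756 to 4890), Ciclev10022706m.g at 519 CPM (97.4 to 133) and Ciclev10024455m.g at 399 CPM (36.1 to 45.7). Ciclev10001812m.g stood at 653 CPM in it (71.9 to 111), Ciclev10000220m.g at 846 CPM (119 to 165), Ciclev10031039m.g at 1392 CPM (508 to 569) and Ciclev10028384m.g at 1265 CPM (521 to 575).

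In ML4x WD leaves, Ciclev10000220m.g was at 1448 CPM in replicate 1 (171 to 299 in the others) and Ciclev10013191m.g at 546 CPM in replicate 2 (140 to 186). In ML2x WD leaves, Ciclev10013119m.g was lower in replicate 4, at 1907 CPM (3019 to 3244 in the others). In roots, Ciclev10014199m.g was at 95.9 CPM in ML4x WD 1 (10.3 to 24.2 in the others) and at 49.5 CPM in PL4x WD 2 (9.27 to 13.8).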

How the results depend on the processing

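Counts of called members kept within 1.5 times the reported count in 303 of 335 recomputations. Without PL4x WD 2 the balance between scions in WD leaves turned, with 5 members higher and 14 lower in PL, where all libraries gave 5 higher and 1 lower. A list of all 318 genes with at least 200 CPM in control leaves and 4-fold over roots gave 255 calls in leaves, 161 in roots, 318 for leaf over root in WD libraries and 22 between scions in control leaves. In these fits 27.8% of all genes were called higher and 20.3% lower in leaves, and 27.3% and 30.7% in roots. For leaf over root the shares were 32.6% and 42.4%, and between scions in control leaves 6.18% and 6.23%. With limma-voom and quality weights the calls were 28 in PL2x, 103 in ML4x, 128 in ML2x, 29 and 21 between scions in WD and control leaves, 81 between rootstocks in WD leaves, 4 for scion by water deficit and 100 for rootstock by water deficit in PL. With DESeq2 they were 6 in PL2x, 6 in ML4x, 96 in ML2x, and 11 and 16 between scions in WD and control leaves. Without the 2 libraries with the fewest counts per tissue, ML2x had 7 calls. With the replicate number as a block, PL4x had 48 calls and ML2x 0, though the numbers do not pair WD with Ctrl trees, and no other count left the range. Leaving out 1 library at a time gave 122 to 140 calls in leaves over the 4 combinations, 78 to 132 in PL4x, 0 to 18 in PL2x (18 without PL2x WD 1) and 0 to 5 in ML4x (5 without ML4x WD 1). In ML2x it gave 1 to 69, with 1 without Ctrl 1 or Ctrl 3, 12 without Ctrl 2, WD 2 or WD 3, and 9 without WD 4. It gave 63 to 82 in roots, 150 to 150 for leaf over root, 4 to 9 between scions in control (4 without PL2x Ctrl 1), 5 to 19 between scions in WD, 0 to 11 between rootstocks in WD and 0 to 63 for rootstock by water deficit in PL, the highest of each without PL4x WD 2. The cause was not tested. Shares over all genes are given above for DESeq2, limma-voom and some left-out libraries, and not for the block or the other fits. Counts without such a share describe how the calls moved with the setting.

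Among the named members, 788 of 842 recomputed values stayed past the threshold and 54 did not, of which 25 were of Ciclev10004757m.g in leaves. With the block, Ciclev10004620m.g and Ciclev10008742m.g in PL4x had adjusted p of 0.095 and 0.079 (edgeR's quasi-likelihood test). Groups held 2 to 4 trees, and the parts of tree number, spread and depth in the counts of calls were not tested.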
